A study of Mus musculus with 2 samples.

Results

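The Gnas imprinted complex on chromosome 2 was described in MeDIP-seq peak lists of mouse epididymal fat, as all peaks that overlapped the interval from 174090000 to 174180000 on mm9 by at least 1 bp. This 90 kb interval, called the Gnas domain here, held 14 of the 166432 peaks of the regular chow library (STD) and 17 of the 175767 peaks of the high-fat diet library (HFD). The lists carry no gene names and no mm9 annotation was used, so the domain and the bounds of its control regions are as the rule of selection gave them and could not be checked against gene models.

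Epididymal white adipose tissue is a visceral fat depot next to the testis. It was taken from male mice of the inbred strain C57BL/6J, which were 4 weeks old when they were put on regular chow or on a diet with 60% of its energy from fat, and they stayed on it for 5 months. In MeDIP-seq, an antibody against 5-methylcytosine pulls down methylated fragments of genomic DNA for sequencing, and a peak is a stretch where a caller found captured fragments in excess. Each diet is represented by 1 library, made from an unstated number of mice. Differences between the diets were therefore not tested across samples. Printed intervals are the exact 95% binomial (Clopper-Pearson) ones and cover counting error only. The lists give positions without counts or scores, so depth is unknown, a peak says nothing about which parental allele it came from, and a missing peak does not show that DNA was unmethylated.

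As background, Gnas encodes the stimulatory G protein alpha subunit (Gs-alpha), which couples hormone receptors to adenylyl cyclase and in adipocytes relays the adrenergic signal for lipolysis. The same locus makes several other transcripts from their own promoters: Nesp, a neuroendocrine secretory protein read from the maternal allele, Gnasxl, a longer G protein subunit read from the paternal allele, Nespas, a paternal antisense transcript, and the untranslated exon 1A transcript, also paternal. Methylation at the Nespas-Gnasxl region is laid down in the oocyte, and the exon 1A region is also methylated on the maternal allele, whereas the Nesp promoter is methylated on the paternal allele and the Gs-alpha promoter on neither.

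The letters of the Gnas start sites are shown because the antibody captures methylated CpG, and these windows differ in how many CpG they offer. RefSeq, on build GRCm38.p6, lists 4 start windows for Gnas, and the 250 bases before 3 of these starts follow, 5′ to 3′ on the plus strand with each CpG in capitals. The other window begins 19 bases after the second one printed. The table does not say which transcript a start belongs to. Nespas, listed there as Gnasas1, has no window. These positions are on a later build than the peaks and cannot be set beside them.
Most upstream start, chr2:174284070-174284319: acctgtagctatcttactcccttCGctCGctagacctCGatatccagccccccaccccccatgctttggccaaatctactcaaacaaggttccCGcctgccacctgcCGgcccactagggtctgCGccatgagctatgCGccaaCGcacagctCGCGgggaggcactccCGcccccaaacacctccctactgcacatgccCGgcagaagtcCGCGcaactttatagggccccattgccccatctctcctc
Intermediate start, chr2:174327499-174327748: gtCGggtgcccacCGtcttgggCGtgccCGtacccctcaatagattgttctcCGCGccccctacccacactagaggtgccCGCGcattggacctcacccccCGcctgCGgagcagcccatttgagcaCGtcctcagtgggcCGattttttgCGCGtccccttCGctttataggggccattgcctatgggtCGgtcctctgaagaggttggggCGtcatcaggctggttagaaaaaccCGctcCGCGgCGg
Most downstream start, chr2:174329756-174330005: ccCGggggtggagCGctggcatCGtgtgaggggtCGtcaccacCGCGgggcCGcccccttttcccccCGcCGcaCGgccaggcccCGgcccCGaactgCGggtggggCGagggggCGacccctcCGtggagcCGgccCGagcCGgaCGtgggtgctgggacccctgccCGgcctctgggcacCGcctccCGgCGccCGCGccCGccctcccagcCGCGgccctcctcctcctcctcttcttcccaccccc

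The most upstream window held 14 CpG, the intermediate one 21 and the most downstream one 29. Over all 32817 promoter windows of the table the median was 6 CpG, with quartiles of 2 and 16. At least as many CpG as in the most upstream Gnas window were found in 29.3% of all windows, as in the intermediate one in 16.3% and as in the most downstream one in 6.78%. All 3 windows thus held more CpG than the median promoter, and the downstream one the most.

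The peaks fell into 19 separate loci, of which 12 were found with both diets, 2 with STD only and 5 with HFD only. A peak was given a partner when a peak of the other list overlapped it by at least 1 bp. Of the 14 STD peaks, 12 had an HFD partner (85.7%, interval 57.2 to 98.2) and 2 had none, where 26.5% of all STD peaks had none. Of the 17 HFD peaks, 12 had an STD partner (70.6%, interval 44.0 to 89.7) and 5 had none, where 30.3% of all HFD peaks had none. Among the wider 50% of each list, 6 of 8 STD peaks and 6 of 13 HFD peaks (46.2%) had a partner. This filter also removes possible partners, and the share over all chromosomes was not computed under it, so 46.2% has no background here. Both intervals of the full lists include the share over all chromosomes, so counting error alone does not set the domain apart from the genome in either list. The HFD to STD ratio of peak number was 1.21 (interval 0.563 to 2.66), which includes both 1 and the genome-wide 1.06. This interval treats the 2 counts as independent, although 12 of the 19 loci were found with both diets. It therefore does not measure the counting error of this ratio, and no conclusion is drawn from it.

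**Figure D1:**
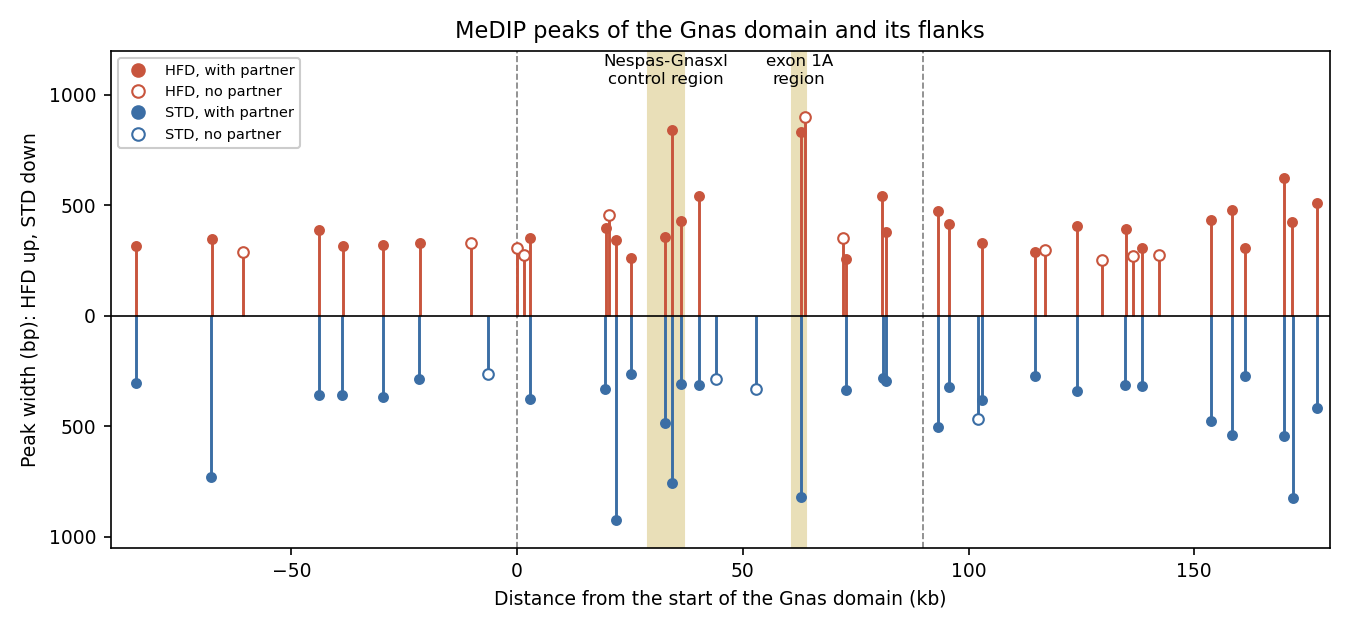
Width of each peak in bp (HFD upward, STD downward) against distance in kb from the start of the Gnas domain, with the 90 kb flanks outside the dashed lines and the control regions shaded. Filled points have a partner in the other list and open points have none; the tallest open point is the HFD peak of 900 bp in the exon 1A region.

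The Nespas-Gnasxl control region, from 174119000 to 174127000, carried 3 peaks in each library, and all of them were paired. The middle peak was the widest of these in both lists: with STD it ran from 174123899 to 174124653 (755 bp) and with HFD from 174123866 to 174124706 (841 bp). The HFD peak contained the STD peak whole. Upstream of it, the STD peak from 174122521 to 174123004 (484 bp) contained the HFD peak from 174122603 to 174122957 (355 bp). Downstream, the HFD peak from 174126111 to 174126539 (429 bp) contained the STD peak from 174126219 to 174126525 (307 bp). Of these 3 peaks, 1 was narrower and 2 were wider with HFD. In all, peaks covered 1546 bp of the region with STD and 1625 bp with HFD, of which 1417 bp were common. Bases common to both lists made up 0.808 of the bases in either (the Jaccard index), against 0.507 over the whole domain and 0.503 over all chromosomes. The region was the part of the domain where the 2 libraries overlapped most, among the 5 segments into which the control regions divide it. This rests on 3 peaks in each list, and the segments differ in length. No index was computed for other stretches of this length, so 0.808 has no matched background here.

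The exon 1A region, from 174151000 to 174154000, gave 1 broad peak that was almost the same in both libraries and a further one that only the HFD list held. The shared peak ran from 174152424 to 174153245 with STD (822 bp) and from 174152404 to 174153237 with HFD (834 bp). Its starts lay 20 bp apart and its ends 8 bp apart, where the median over all 120322 pairs was 29 bp at either end. The second HFD peak, from 174153347 to 174154246, was 900 bp wide and had no STD partner. It began 109 bp after the end of the first HFD peak and 101 bp after the end of the STD peak. The nearest STD peak on its other side began at 174162697. Its last 246 bp lay beyond the region's stated bound. Within the bounds the HFD list covered 1488 bp and the STD list 822 bp, a ratio of 1.81. Counted as whole peaks, the HFD sum was 1734 bp and the ratio 2.11. How peaks were called is not given, and such ratios can also move with how much was called in each list.

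**Figure D2:**
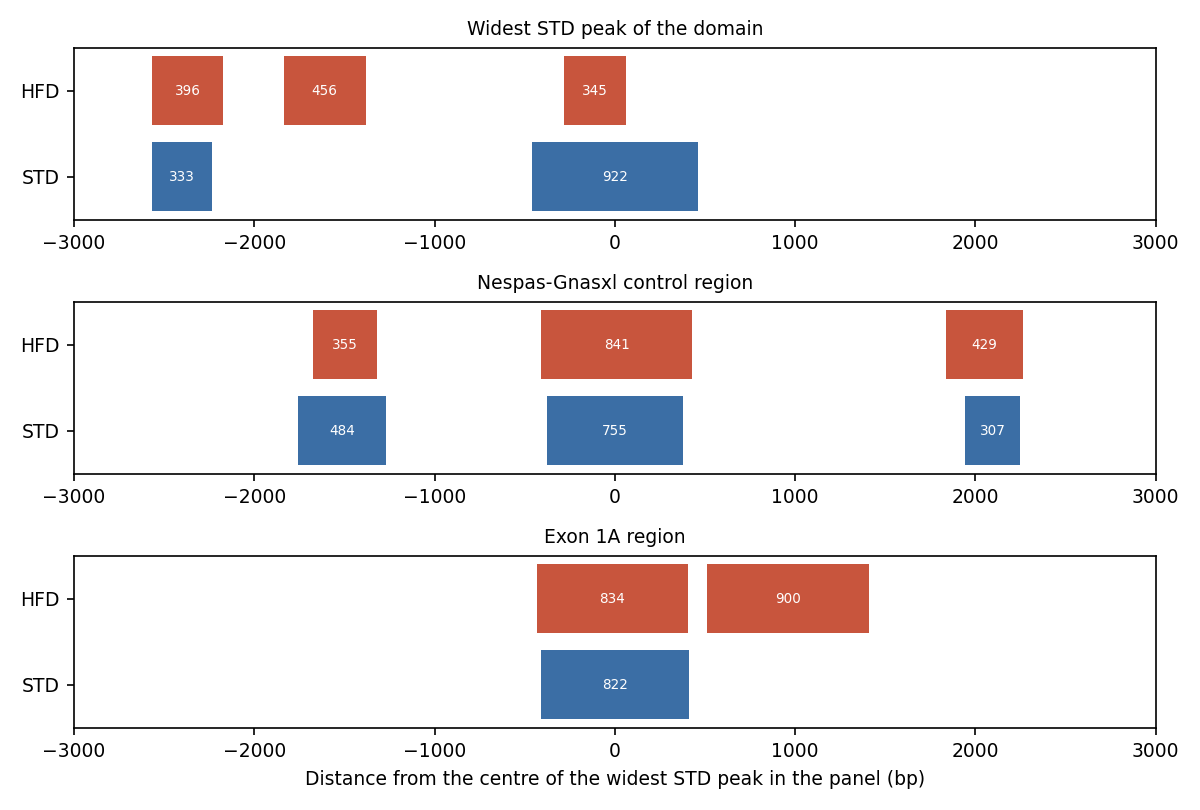
Peaks drawn to scale as bars with their width in bp, STD below and HFD above, against distance in bp from the centre of the widest STD peak of each panel. The peaks of the Nespas-Gnasxl control region line up in both lists, the exon 1A region has a second HFD bar of 900 bp, and the STD bar of 922 bp faces an HFD bar of 345 bp.

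Broad peaks without a partner were rare in either list. Of the STD peaks of the domain, 2 were at least 800 bp wide, where 1.16% of all STD peaks were. Of the HFD peaks, 3 were, where 0.965% of all HFD peaks were. Genome-wide, 98.8% of HFD peaks of this width (interval 98.1 to 99.2) and 99.2% of such STD peaks (98.7 to 99.5) had a partner, which left 21 HFD and 16 STD peaks. Of the 21 HFD peaks, 7 had an STD peak within 500 bp. The 900 bp peak of the exon 1A region is 1 of 8 peaks of at least this width among the 53174 HFD peaks without a partner, whose median width was 281 bp. Among all HFD peaks, 868 were at least this wide. The limit of 900 bp was taken from this peak itself. Peaks of at least 800 bp that followed each other within 500 bp in the same list were found 3 times with STD and 2 times with HFD. In 1 of these 5 cases, the exon 1A region with HFD, only 1 of the neighbours had a partner. This count was made after the values of the region had been seen.

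Upstream of the control regions, between 174090000 and 174119000, the HFD list had 7 peaks and the STD list 4. All 4 STD peaks were paired. The widest STD peak of the domain lay here, from 174111510 to 174112431 (922 bp), and its HFD partner, from 174111686 to 174112030, was 345 bp wide and lay wholly within it. The STD peak was 2.67 times as wide. Among the 120322 pairs of the genome with 1 partner on each side, 30 had an HFD minus STD width of -577 bp, as here, or lower. Only a wide STD peak can reach this value, since the narrowest HFD peak of the whole list was 255 bp. The median STD width over all pairs was 353 bp, so most pairs could not reach it. No comparison was made with pairs of similar STD width. The width difference of this pair thus ran opposite to the difference in the exon 1A region, where the HFD list covered more.

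In the same stretch, the HFD peak from 174110133 to 174110588 (456 bp) had no partner. An STD peak of 333 bp, itself paired with an HFD peak of 396 bp, ended 395 bp before it. The remaining paired peaks differed little, with 377 bp (STD) and 352 bp (HFD) for the pair whose STD peak began at 174092620, and 263 bp and 261 bp for the one at 174115137. At the edge of the domain, the HFD peak from 174089824 to 174090128 (305 bp), which crosses the bound, and that from 174091479 to 174091752 (274 bp) had no partner. The nearest STD peak was 2.49 kb and 0.867 kb away.

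Between the control regions, from 174127000 to 174151000, the direction was the other way: 3 STD peaks stood against 1 HFD peak. The HFD peak from 174130007 to 174130550 (544 bp) contained its STD partner from 174130224 to 174130538 (315 bp). The STD peaks from 174133883 to 174134170 (288 bp) and from 174142861 to 174143192 (332 bp) had no partner, and the nearest HFD peaks were 3.33 kb and 9.21 kb away. Both were no wider than the median STD peak of the genome, at 332 bp. From the end of the 544 bp peak to the exon 1A region the HFD list held no peak for 21.9 kb, its longest gap in the domain. Gaps of at least this length made up 14.5% of those between neighbouring autosomal HFD peaks.

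Downstream of exon 1A, from 174154000 to 174180000, no peak of either list lay within 7.73 kb of the end of the 900 bp HFD peak. Then the HFD peak from 174161975 to 174162328 (354 bp) had no partner, with an STD peak at 0.368 kb. That STD peak, from 174162697 to 174163032 (336 bp), overlapped an HFD peak of 258 bp. The STD peak from 174170827 to 174171108 (282 bp) lay within an HFD peak of 543 bp that ran from 174170603 to 174171145. The last pair, whose STD peak began at 174171656, measured 297 bp with STD and 380 bp with HFD. Apart from the end of the 900 bp peak, 3 of the 4 HFD loci here were therefore shared, and no STD peak was without a partner.

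The 12 pairs were compared in width. The HFD peak was the wider in 7 of 12 pairs, where it was the wider in 43.3% of all pairs. The median difference was 37.5 bp more with HFD in the domain and -8 bp over all pairs, and the narrowest peak in the whole list was 263 bp with STD and 255 bp with HFD. Differences ranged from -577 bp to 261 bp. Widths differed by more than 100 bp in 5 of the 12 pairs, where they did so in 17.2% of all pairs. Of these 5 pairs, the HFD peak was the wider in 3 and the STD peak in 2. The change in width was not in one direction.

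**Figure D3:**
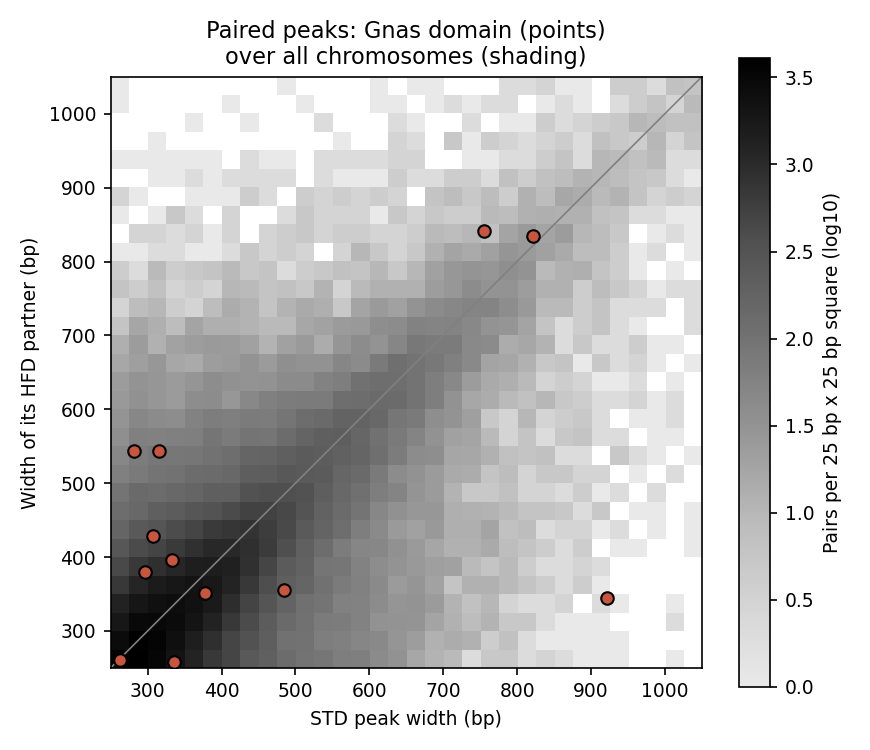
Width of the HFD partner against width of the STD peak, both in bp, for the 12 pairs of the Gnas domain (points) over all 120322 pairs of the genome (shading, log10 of the number of pairs per square, with the widest pairs beyond the axes). The point far below the diagonal is the pair of 922 bp (STD) and 345 bp (HFD), and the point at 822 bp and 834 bp, next to the diagonal, is the shared exon 1A peak.

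Neighbouring peaks of the domain were a median of 1.38 kb apart in the HFD list and 3.70 kb in the STD list. Over the whole lists these medians were 6.669 kb and 6.915 kb. The domain medians leave out the gaps to the nearest peaks outside it, 9015 and 10924 bp with STD and 9786 and 10888 bp with HFD. All of these were longer than the whole-list medians, so the domain medians are biased to short gaps. In peaks per Mb, the domain held 155.6 with STD and 188.9 with HFD, against 64.5 and 68.12 over all chromosomes. The longest gap of the domain was longer with HFD, at 21.9 kb against 16.4 kb. Of the 16 gaps between neighbouring HFD peaks of the domain, 4 were 500 bp or shorter, where 5.45% of such gaps were in the whole list. Of the 13 gaps between neighbouring STD peaks none was, where 5.23% were in the whole list. In 3 of these 4 close HFD neighbours, 1 peak was shared with STD and the other was not. The fourth, at the downstream end, joined 2 shared peaks that were 481 bp apart with HFD and 547 bp with STD, so the count there turns on the limit of 500 bp. Of the 5 HFD peaks without a partner, 3 had an STD peak within 500 bp, where 9.57% of all HFD peaks without a partner did. Neither of the 2 STD peaks without a partner had an HFD peak that close, where 10.3% of all such STD peaks did. Peaks without a partner thus lay beside shared peaks in 3 of 5 cases with HFD and in neither case with STD. The whole-list shares were not matched for the density of peaks, and close neighbours are more frequent where peaks are dense.

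The flanks of 90 kb on each side were measured in the same way. The left flank was sparser, with 7 STD and 8 HFD peaks. Within its bounds, 2667 bp were covered with STD and 2815 bp with HFD. The HFD bases include part of the peak that crosses into the domain, which was counted as a peak of the domain only. The right flank held as many peaks as the domain, 14 with STD and 17 with HFD, and these covered 5983 bp and 6505 bp. The domain itself was covered over 6113 bp with STD and 7650 bp with HFD. In both flanks together, 19 of 21 STD peaks (90.5%, interval 69.6 to 98.8) and 19 of 25 HFD peaks (76.0%, interval 54.9 to 90.6) had a partner, and these intervals overlap those of the domain. The widest flank peaks without a partner were an STD peak of 465 bp from 174191874 to 174192338 and an HFD peak of 329 bp from 174079709 to 174080037.

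Wide STD peaks that faced a narrower HFD partner were also seen outside the domain. In the left flank, an STD peak of 729 bp (174021926 to 174022654) was paired with an HFD peak of 346 bp. In the right flank, an STD peak of 824 bp (174261442 to 174262265) was paired with an HFD peak of 424 bp. No HFD peak of either flank reached 800 bp. The flank pairs differed in width by more than 100 bp in 2 of 19 cases, both of them these.

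Against windows of the same length, the domain was rich in peaks in both libraries. The 26798 autosomal windows of 90 kb had a median of 5 peaks in each list. At least 14 STD peaks were found in 10.3% of windows and at least 17 HFD peaks in 4.25%. In covered bases, 3.84% of windows reached the 6113 bp of the STD list and 0.575% the 7650 bp of the HFD list, where the medians were 1775 bp and 1855 bp. The HFD list covered 1537 bp more of the domain than the STD list, and 1.36% of windows had an excess of HFD as large. Such an excess needs at least as many bases of HFD coverage. The lower quartile of that coverage was 687 bp and its median 1855 bp, so the excess lay between them. Windows with less HFD coverage than the excess, including many above the lower quartile, could therefore not reach it. At least 2 STD peaks of 800 bp or more were found in 127 windows, at least 3 such HFD peaks in 8, and both in 6. With the windows moved along by part of their length, the numbers were 118, 12 and 8, so these counts depend on where windows begin. Windows were not matched for covered bases, CpG or gene content.

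**Figure D4:**
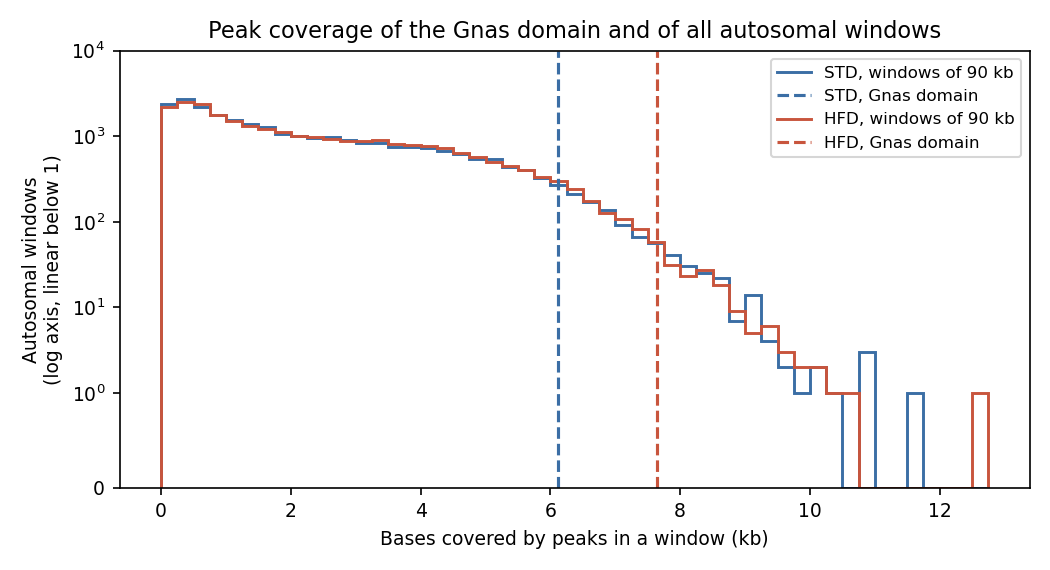
Number of autosomal windows of 90 kb (log axis, linear below 1) against the bases covered by peaks in a window, in kb, for each list, with the Gnas domain as dashed lines. The domain lies to the right of most windows in both lists, at 6113 bp with STD and 7650 bp with HFD.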

How the data were processed

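MeDIP-seq peak lists of 2 libraries were used, 1 per diet, grouped by the diet in the labels. Per the submitters' processing notes, BWA was the aligner and mm9 the build. Not given in the sources used here: how peaks were called, whether an input was used and whether mice were pooled. The authors deposited 4 columns per list (chromosome, start, end and name), with no score. Nuclear chromosomes (1 to 19, X and Y) were kept, and 6 mitochondrial peaks per list were set aside. Printed positions count from 1.

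Partners, gaps, widths and covered bases were computed with pandas 2.3.3, numpy 2.4.6 and scipy 1.17.1 in Python 3.11.15, and plotted with matplotlib 3.10.9. The numbers with a partner were identical with bedtools 2.31.1 (122362 STD and 122593 HFD peaks), and the code was tested on simulated lists. A peak that overlapped a control region was counted there. Widths were compared between peaks with exactly 1 partner on each side. Windows of 90 kb began at multiples of their length, and were also tried on a grid moved along by part of a window, chosen after the data had been seen. Every peak of the domain was reported; those in a control region, those without a partner and the 3 widest of each list were given in full. Start windows were matched by symbol: 1 of the 2 named members, Gnas, had one.

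The domain, its control regions and these measures were chosen with earlier results of these data known. The alternatives were other overlap rules, width filters, merging, midpoint membership and wider control regions, and, added after the data had been seen, equal numbers of the widest peaks.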

Additional observations from a re-analysis of the deposited data

How the results depend on the processing

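Of 42 recomputed values, 5 moved. A share was taken to move when it left its binomial interval, a count of peaks or bases beyond 1.5 times, and the Jaccard index at any difference in 3 digits. With 14 and 17 peaks these intervals are wide and say little about stability. Keeping only the wider 50% of each list left 8 STD peaks in the domain, against 13 HFD peaks. The Jaccard index of the domain, 0.507, was 0.455 after merging peaks across gaps of up to 500 bp, 0.432 for peaks of at least 300 bp and 0.363 in the wider 50% of each list. It was 0.485 with the 133145 widest peaks of either list, an alternative added after the data had been seen, under which 13 STD and 14 HFD peaks remained. The share of HFD peaks with a partner, 70.6%, ranged from 46.2% (6 of 13, wider 50%) and 57.1% (8 of 14, at least 300 bp) to 88.2% (15 of 17, a peak within 500 bp counted). That of STD peaks, 85.7%, was lowest in the wider 50%, with 6 of 8. The Jaccard index and the shares were recomputed in the domain only, so no genome-wide value under the same filters stands beside them. The cause of these shifts was not tested. No paired analysis was possible because there is only 1 library per diet, and no replicate could be left out either. The unknown depth limits every statement on the absence of a peak.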

Other observations

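How often a broad peak stands beside another of its list, with a partner for only 1 of the neighbours, was also counted at lower widths, after the exon 1A region had been seen. Among neighbours of at least 700 bp within 500 bp of each other, this held for 1 of 11 with HFD and 0 of 10 with STD. At 600 bp it held for 2 of 31 with HFD and 2 of 30 with STD, and at 500 bp for 9 of 112 and 14 of 122. The counts were thus as high in the STD list as in the HFD list at 600 bp and higher at 500 bp.

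The longest stretch of the domain without a peak in either list measured 16.4 kb, between 174092996 and 174109402. Stretches at least as long made up 15.8% of those between neighbouring loci on the autosomes, where the median was 5.38 kb.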
